A study of Homo sapiens with 8 samples.

Results

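IFIT1, IFIT2, IFIT3 and IFIT5 (interferon-induced proteins with tetratricopeptide repeats) and IFI44 and IFI44L (interferon-induced protein 44 and its paralogue) were followed in HCT-116 human colorectal carcinoma cells. The 6 genes were chosen by their signal, which was lower than in WT cells in all 3 of the other groups, so their differences from WT are given as a description without a test. All probes named for them were taken, which gave 7 of the 50599 probes on the array and 6 of 36337 gene or transcript names. All 7 probes passed the filter on dim signal, under which some group had to have both of its arrays well above background. IFIT2 has 2 probes and each of the other 5 genes has 1. IFIT1B, a further gene of the IFIT group, was not well above background on any of the 8 arrays.

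The 4 groups had 2 Cy3 arrays each, from biological replicates per the study's design. WT cells were the untreated parental line. WT+NU6102 cells were the same line after 24 h in 20 µM NU6102, an inhibitor of the cyclin-dependent kinases CDK1 and CDK2. CDK2-/- cells were an untreated HCT-116 line without functional CDK2, bought as a single line. R50 cells came from resistant colonies of HCT-116 grown in 50 µM NU6102 from the beginning, and they were kept in that concentration, so their values combine selection with continued exposure. CDK2-/- and R50 shared 1 slide, and WT and WT+NU6102 shared the other. R50 against CDK2-/- and WT+NU6102 against WT were therefore compared within a slide, and in the other comparisons slide and group cannot be told apart.

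IFIT genes are transcribed when interferon, released by cells that sense foreign nucleic acid, binds its receptor and activates the kinases JAK1 and TYK2. Their signal leads to the factor ISGF3, which includes STAT2 and IRF9 and binds the interferon-stimulated response element in promoters. IFIT1 binds RNA whose cap lacks ribose methylation and blocks its translation, IFIT2 and IFIT3 form complexes with IFIT1, and IFIT5 binds RNA with a 5′ triphosphate. IFI44 and IFI44L are induced by the same route and their biochemical roles are less settled. Such genes can be expressed at a resting level in carcinoma lines without added interferon.

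The array reads each gene through 60-base probes, and the probes of IFIT1, IFIT3 and IFI44 and the dimmer probe of IFIT2 are shown here because the values below rest on what they bind. They lie on the plus strand of hg19 at the positions given in the scanner files, within the transcripts of the genes named, and all bases are in lower case since the whole probe hybridizes.
IFIT1, chr10:91163438-91163497: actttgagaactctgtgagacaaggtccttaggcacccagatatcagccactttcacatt
IFIT2, chr10:91066613-91066672: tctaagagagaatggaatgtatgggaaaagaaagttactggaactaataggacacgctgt
IFIT3, chr10:91099762-91099821: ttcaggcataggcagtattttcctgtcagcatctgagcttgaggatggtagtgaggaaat
IFI44, chr1:79128479-79128538: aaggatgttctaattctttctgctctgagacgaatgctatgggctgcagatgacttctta
The brighter IFIT2 probe lies at chr10:91068397-91068456, the IFIT5 probe at chr10:91179559-91179618 and the IFI44L probe at chr1:79107590-79107649. The 4 IFIT genes thus lie close together on chromosome 10, and IFI44 and IFI44L lie side by side on chromosome 1.

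Promoter windows of 300 bases, from 250 before to 50 after the transcription start, were taken from RefSeq on GRCh38.p14 for 5 of the 6 genes. The core of the interferon-stimulated response element was searched on both strands as GAAA, any 2 bases and GAAA again. It occurred in all 7 windows of these 5 genes and in 3.57% of the 35116 windows of all genes. The 2 windows of IFI44 overlap and hold the same match, so the 7 windows are not independent. The longer form with 2 more bases and GAAA once more, whose matches contain the core, was in none of the 7 and in 0.154% of all windows, and the gamma-activated site, searched as TTC, any 3 bases and GAA, was in none of the 7 and in 7.66% of all. The 150 bases before the start are printed for the most upstream window of each gene because all 5 hold a whole match of the core, which is in capitals and may be on either strand.
IFIT1 promoter, chr10:89392473-89392622, plus strand: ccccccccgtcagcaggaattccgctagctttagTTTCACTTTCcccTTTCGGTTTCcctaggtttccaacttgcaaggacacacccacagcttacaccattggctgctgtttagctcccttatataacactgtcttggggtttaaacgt
IFIT3 promoter, chr10:89327847-89327996, plus strand: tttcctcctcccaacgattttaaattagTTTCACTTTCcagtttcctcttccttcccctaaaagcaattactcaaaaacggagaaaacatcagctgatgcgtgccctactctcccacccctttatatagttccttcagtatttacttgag
IFIT5 promoter, chr10:89414418-89414567, plus strand: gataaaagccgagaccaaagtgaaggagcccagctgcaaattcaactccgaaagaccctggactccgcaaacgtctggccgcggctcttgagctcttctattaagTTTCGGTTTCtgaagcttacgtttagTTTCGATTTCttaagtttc
IFI44 promoter, chr1:78649639-78649788, plus strand: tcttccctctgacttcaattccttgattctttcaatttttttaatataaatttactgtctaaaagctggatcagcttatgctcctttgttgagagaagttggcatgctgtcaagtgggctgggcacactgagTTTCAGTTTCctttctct
IFI44L promoter, chr1:78620298-78620447, plus strand: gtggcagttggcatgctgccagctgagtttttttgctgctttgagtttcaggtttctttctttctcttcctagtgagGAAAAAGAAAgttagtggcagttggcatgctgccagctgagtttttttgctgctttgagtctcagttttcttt
The matches shown for the 3 IFIT genes and IFI44 are on the minus strand, and the nearer of those in IFIT1 begins 103 bases before the start. The only match shown for IFI44L, 73 bases before the start, is on the plus strand. A match of letters is a description of the window and shows no binding.

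Values below are log2 processed signal less the 75th percentile of the same array, so they compare arrays for 1 probe and not probes with each other. IFIT1 read 5.26 and 5.23 on the WT arrays, 3.81 and 3.74 in R50, 1.76 and 1.76 in WT+NU6102, and 0.23 and 0.20 in CDK2-/-. The groups did not overlap, and duplicates lay far closer to each other than neighbouring groups did. In bulk RNA, fewer cells that express a gene and less of its RNA per cell cannot be told apart. On the linear scale R50 kept 36.1% of the WT signal of IFIT1, WT+NU6102 8.94% and CDK2-/- 3.07%.

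IFIT2, the partner of IFIT1 and IFIT3, read 1.64 and 1.65 in WT, 0.77 and 0.65 in R50, 0.05 and 0.02 in WT+NU6102, and −1.68 and −1.71 in CDK2-/- with its brighter probe. The other probe read −1.93 and −2.28, −2.94 and −3.44, −4.03 and −3.99, and −5.74 and −7.17 in the same order of groups. It was not well above background in CDK2-/- cells. Both probes gave the same order of group means, and at neither did a group overlap another.

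IFIT3, which stabilizes the complex with IFIT1, read 0.69 and 0.49 in WT, −0.98 and −0.76 in R50, −2.43 and −2.46 in WT+NU6102, and −3.14 and −3.10 in CDK2-/-. IFIT5 covered the narrowest span of the 6 genes, with 2.53 and 2.48 in WT, 1.63 and 1.61 in R50, 1.51 and 1.49 in WT+NU6102, and 1.30 and 1.18 in CDK2-/-. Of the WT signal of IFIT3, 36.3% was left in R50, 12.2% in WT+NU6102 and 7.64% in CDK2-/- cells. For IFIT5 these shares were 54.3%, 49.7% and 41.6%, so the gene was lower in all 3 groups but the 3 groups lay close together.

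IFI44 read 0.91 and 0.79 in WT, −1.21 and −1.12 in R50 and −2.32 and −2.37 in WT+NU6102. In CDK2-/- cells it was not well above background on either array, with measured values of −6.18 and −6.69, and WT exceeded CDK2-/- at least 63.2-fold. Such a bound sets the brighter group's mean against the lowest signal well above background on each array of the dimmer group. Where the probe's own value is higher, that value is used instead. Bounds hold for the main processing only. Over the alternative settings listed below, the log2 difference of IFI44 in CDK2-/- from WT ran from −7.54 to −4.02, and the last is smaller than the bound.

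IFI44L read −1.33 and −1.65 in WT and −4.30 and −4.47 in R50. It was not well above background in WT+NU6102 (−7.21 and −6.91) or in CDK2-/- cells (−7.48 and −7.14), and these 4 values overlap. WT exceeded WT+NU6102 at least 11.2-fold and CDK2-/- at least 12.5-fold, and R50 kept 13.5% of the WT signal. Over the alternative settings the log2 differences from WT were as small as −2.36 in WT+NU6102 and −2.24 in CDK2-/-.

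**Figure D1:**
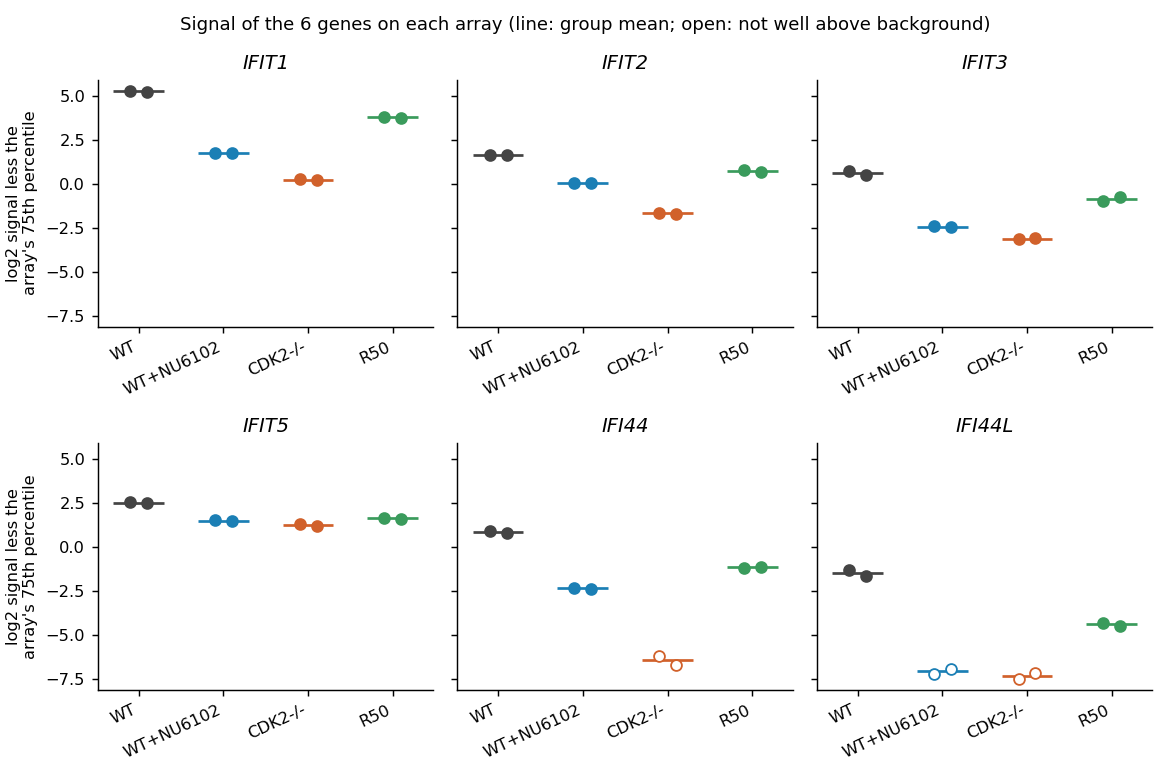
Each point is 1 array, with the log2 processed signal less the array's 75th percentile on the y axis and the 4 groups on the x axis; lines are means of 2 arrays and open points are not well above background. In each of the 6 genes WT is highest and R50 next, and IFI44 in CDK2-/- and IFI44L in CDK2-/- and WT+NU6102 have open points only.

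All 6 genes had the order WT, R50, WT+NU6102, CDK2-/- from high to low. The rule that chose the genes fixed WT as the highest group and did not use the order of the other 3, though earlier results of these data were known. Among the 3346 tested names whose mean was highest in WT, 15.5% had this order. For IFI44L the last step is not resolved, since both groups were below background, and for IFIT5 R50 and WT+NU6102 did not differ beyond the fit's error (0.13, limma adjusted p = 0.111). Differences from WT ranged over the 6 genes from −1.01 to −5.57 in WT+NU6102, with a median of −3.11, from −1.27 to −7.28 in CDK2-/- with a median of −4.37, and from −0.88 to −2.89 in R50 with a median of −1.47. The medians over all names tested were 0.04, 0.02 and −0.04. These values include those below background, and with such genes at their bound the medians of the 6 were −3.11, −3.68 and −1.47. After normexp background correction the first 2 medians of the 6 genes were −2.41 and −2.96.

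Whether the 3 groups differ from each other was tested with limma across all probes. The rule that chose the genes did not use these contrasts. Earlier results of these data were known when the genes were chosen, so the p-values are not free of selection. The 3 contrasts share arrays, so each is given by its own values. A call needed a Benjamini-Hochberg adjusted p under 0.05 and an absolute log2 difference of at least 1. Between R50 and CDK2-/- cells, within a slide, 5 of the 6 genes were higher in R50, where 2.83% of the 21595 names tested were called higher. The median difference of the 6 was 2.67, or 2.33 with IFI44 and IFI44L at their bounds, against −0.06 over all names. IFIT1 was higher by 3.56 (SE 0.05, limma adjusted p = 6.78e-06), which is 11.8-fold. IFIT2 was higher by 2.41 (SE 0.06, limma adjusted p = 2.3e-05) and IFIT3 by 2.25 (SE 0.10, limma adjusted p = 0.000106). IFI44 was at least 15.6-fold higher in R50 (limma adjusted p = 4.41e-05), and over the alternative settings its log2 difference was as small as 2.20. IFI44L was at least 1.68-fold higher (limma adjusted p = 0.000276), a bound under the minimum difference for a call. The IFI44L call was lost after normexp correction, with a difference of 0.65. It was also lost with an unpaired t-test after Benjamini-Hochberg adjustment (t-test adjusted p = 0.0511). IFIT5 differed by 0.38 (95% interval 0.25 to 0.52), under the minimum for a call. The dimmer IFIT2 probe was at least 3.84-fold higher in R50 (limma adjusted p = 0.00451).

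R50 was also set against WT+NU6102 cells, both exposed to NU6102, at 50 µM without a stated limit of time and at 20 µM for 24 h, on different slides. Of the 6 genes 4 were higher in R50, beside 7.53% of all names. IFIT1 was higher by 2.01 (SE 0.05, limma adjusted p = 1.65e-05), IFIT3 by 1.57 (SE 0.10, limma adjusted p = 0.000118) and IFI44 by 1.18 (SE 0.16, limma adjusted p = 0.00201). IFI44L was at least 1.51-fold higher (limma adjusted p = 0.000142), again a bound under the minimum difference for a call. IFIT2 differed by 0.68 (95% interval 0.54 to 0.82) and IFIT5 by 0.13 (95% interval −0.01 to 0.27), and neither was called. The dimmer IFIT2 probe gave 0.82 (95% interval −0.34 to 1.98). After normexp correction IFI44 and IFI44L, at 0.89 and 0.76, were no longer called.

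CDK2-/- cells lay below WT+NU6102 cells in 3 of the 6 genes, across slides, where 3.45% of all names were called lower. IFIT1 was lower by a log2 difference of −1.54 (SE 0.05, limma adjusted p = 2.4e-05) and IFIT2 by −1.73 (SE 0.06, limma adjusted p = 2.67e-05). IFI44 was at least 6.92-fold lower (limma adjusted p = 4.08e-05), and over the alternative settings its log2 difference was as small as −1.31. IFIT3, at −0.68 (95% interval −0.92 to −0.44), and IFIT5, at −0.26 (95% interval −0.40 to −0.12), were under the minimum for a call. IFI44L, below background in both groups, gave −0.25 (limma adjusted p = 0.289), and 0.11 after normexp correction.

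**Figure D2:**
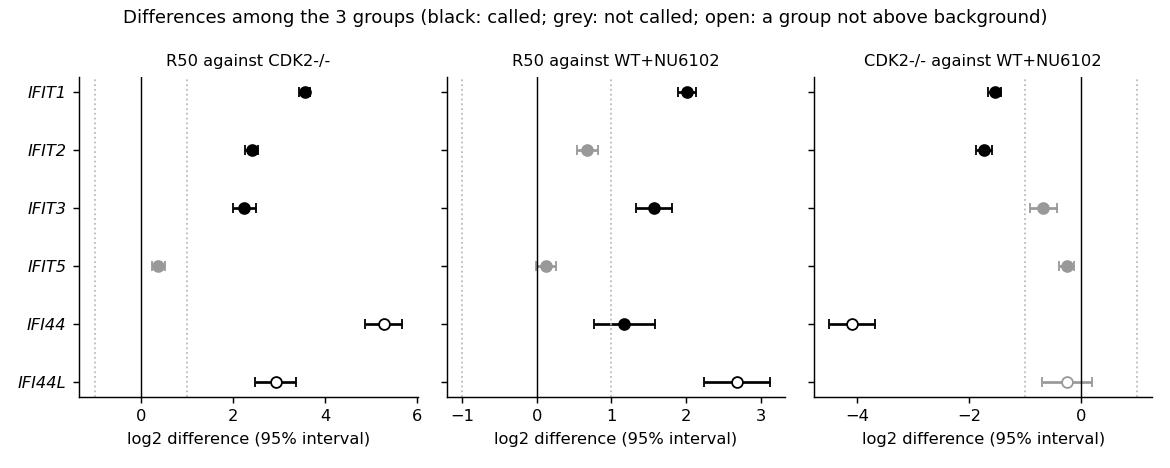
Points are log2 differences between the groups named above each panel and bars are 95% intervals from limma; dotted lines mark the minimum of 1 for a call. Called genes are black and open points have at least 1 group below background, and no bound exists for IFI44L in the right panel, where both groups were below it; 5, 4 and 3 of the 6 genes were called in the 3 panels.

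Over the 8 arrays the 6 genes followed each other with a Pearson r between 0.848 and 0.997 in their 15 pairs (median 0.936), as a description, since all share the arrays and were chosen for 1 pattern. The 8 other genes most like the mean of the 6, among 4332 names whose group means spanned at least 1, had r between 0.985 and 0.993. They were LAMP3, a lysosomal membrane protein induced in dendritic cells, RAMP1, a partner of the calcitonin-receptor-like receptor, BLID, an inducer of cell death, IRF7, the factor that amplifies interferon transcription, BATF2, a leucine zipper factor, IFITM3, which hinders virus entry, ISG15, a ubiquitin-like modifier, and ABCD3, a peroxisomal transporter. An r of at least 0.95 was reached by 34 names. LAMP3 was lower than WT by −1.96 in WT+NU6102, −2.52 in CDK2-/- and −0.90 in R50, and the values for IRF7 were −2.41, −3.28 and −0.81.

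**Figure D3:**
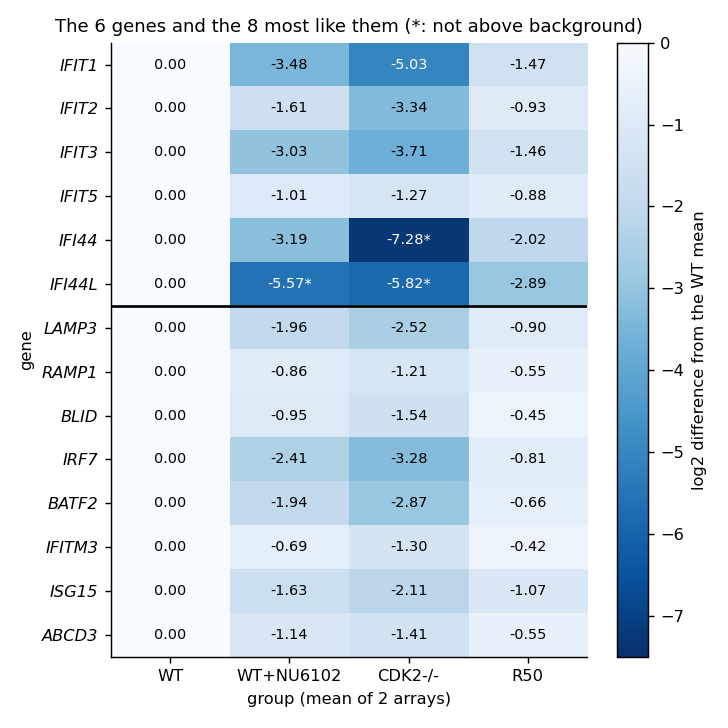
Each cell gives the log2 difference of a group mean (2 arrays) from the WT mean, with darker blue for lower values and an asterisk where the group was not above background. The 6 genes stand above the line and the 8 genes most like them over the 8 arrays stand below it, with the same order of groups.

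The rest of the interferon pathway was read from lists of ligands, receptors, factors, sensors and effectors that leave out the 6 genes. Of the genes on these lists 79 were tested. The lists were chosen with earlier results of these data known, so their counts are not free of selection. In WT+NU6102 cells 44 of the 79 were lower than in WT and 0 higher, beside 5.19% and 1.12% of all names tested. In CDK2-/- cells 40 were lower and 0 higher, beside 2.25% and 2.43%. In R50 cells 11 were lower and 1 higher, beside 0.908% and 1.72%, and after normexp correction 5 were lower and 1 higher. With no minimum difference the lower and higher counts were 57 and 10, 58 and 3, and 41 and 2, for WT+NU6102, CDK2-/- and R50. The share of all names was not taken at that setting, so the shares above do not apply to these counts.

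Of 17 interferon genes on the array 8 were above background on at least 1 array, and 4 were tested. IL28A, an interferon lambda and nearly identical to IL28B so that their probes may share targets, was above background on all 8 arrays and lower than WT by −1.38 in WT+NU6102 (limma adjusted p = 0.000234) and −1.71 in CDK2-/- (limma adjusted p = 0.000165). In R50 its difference was −0.97 and was not called. IL29, another interferon lambda, was at least 4.11-fold lower in WT+NU6102 (limma adjusted p = 0.0181) and at least 5.22-fold lower in CDK2-/- (limma adjusted p = 0.00773). IL28B was at least 1.93-fold, 2.15-fold and 1.99-fold lower in WT+NU6102, CDK2-/- and R50, and IL29, above background on 1 of the 2 R50 arrays, was lower there by −1.84 (limma adjusted p = 0.0456). IFNA4, an interferon alpha, was between −0.40 and 0.41 from WT in the 3 groups and was not called.

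None of the 9 receptor and kinase genes tested (IFNAR1, IFNAR2, IFNGR1, IFNGR2, IL10RB, IL28RA, JAK1, JAK2 and TYK2) was called against WT. Their differences ran from −0.87, for JAK1 in CDK2-/- cells, to 0.51, for IL28RA, the specific receptor chain for interferon lambda, in WT+NU6102. JAK1 in CDK2-/- cells had a limma adjusted p = 0.00421 and fell short of the minimum difference.

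Several transcription factors of the pathway were lower. IRF9, the DNA-binding part of ISGF3, was lower by −3.81 in WT+NU6102 (limma adjusted p = 6.84e-05) and −2.57 in CDK2-/- (limma adjusted p = 5.42e-05), and differed by −0.23 in R50 (limma adjusted p = 0.116). STAT2 was called in WT+NU6102 alone, at −1.13, with −0.49 in CDK2-/- and 0.00 in R50. IRF7 was called in WT+NU6102 and CDK2-/- at the values given above. IRF1, at −0.87, −0.96 and −0.27, and IRF2, at −0.60, −0.74 and 0.08, were not called, and IRF3 and IRF5 stayed between −0.21 and 0.05.

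IRF9 did not keep the order of the IFIT genes. It was higher in CDK2-/- than in WT+NU6102 cells, by 1.25 (limma adjusted p = 0.000162), where IFIT1 and IFIT2 were lower. R50 exceeded both, by 2.34 over CDK2-/- (limma adjusted p = 6.63e-05) and by 3.59 over WT+NU6102 (limma adjusted p = 1.65e-05).

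Among negative regulators, USP18, which removes ISG15 and restrains the receptor, was lower by −1.06 in WT+NU6102 (limma adjusted p = 0.000356) and −1.68 in CDK2-/- (limma adjusted p = 0.000137), with −0.88 in R50. SOCS1, SOCS3 and PIAS1 lay between −0.61 and 0.61 from WT and were not called. Of 11 sensors and adaptors, IFIH1 (MDA5, a sensor of double-stranded RNA), DHX58 (LGP2) and TLR3 were lower in both WT+NU6102, at −2.45, −2.02 and −1.77, and CDK2-/-, at −2.36, −1.48 and −1.23. TMEM173 (STING, an adaptor for cytosolic DNA) was the gene higher in R50, by 1.04 (limma adjusted p = 0.000311), and the others of the list were not called there.

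Of the 42 antiviral effectors tested, 33 were lower in WT+NU6102, 30 in CDK2-/- and 9 in R50, and 0 were higher in each. The medians were −1.62, −1.48 and −0.72, or −1.37, −1.41 and −0.70 with genes below background at their bound. In WT+NU6102 the effectors with the lowest measured differences included OAS1, an activator of RNase L, at −4.47 with an SE of 0.78 (limma adjusted p = 0.0061), and PARP10 at −4.15 (limma adjusted p = 2.58e-05). SAMD9L, not above background there, was at least 10.3-fold lower (limma adjusted p = 0.000594) and has no settled rank. In CDK2-/- the 3 lowest were IFITM1 at −6.37, BST2 (tetherin, which holds virus particles at the cell) at −6.21 and IFI27 at −6.00. In R50 OASL, at −1.37, and BST2, at −1.25, were lowest among those above background, and EPSTI1, not above it in R50, was at least 1.59-fold lower without a settled rank.

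**Figure D4:**
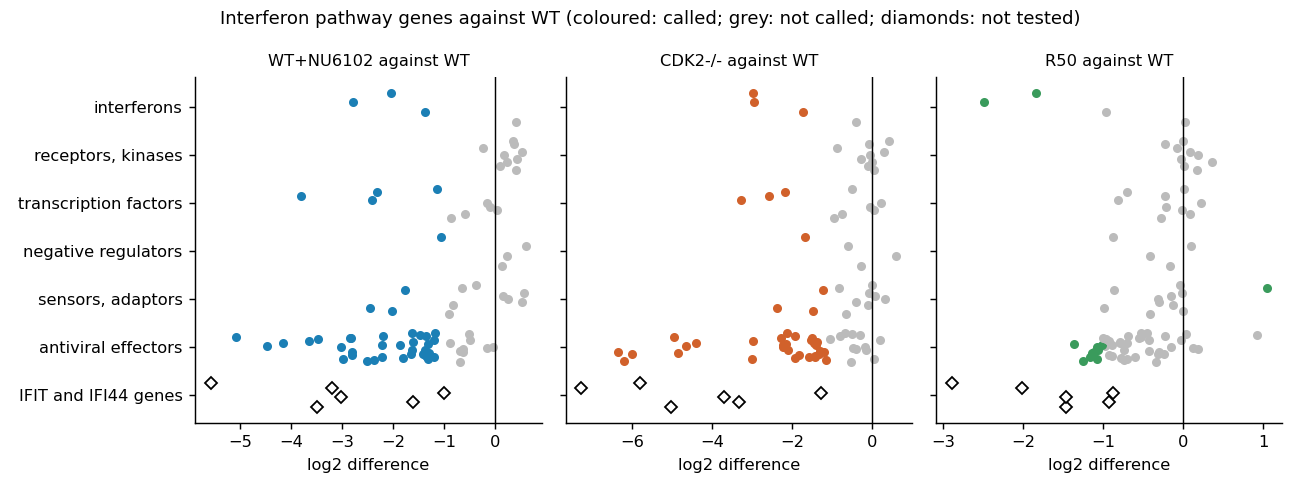
Each circle is 1 gene of a list, with its log2 difference from WT on the x axis (the range differs between panels); coloured circles were called by limma and grey ones were not. Open diamonds are the 6 IFIT and IFI44 genes, which were chosen on these contrasts and not tested; coloured circles number 44, 40 and 12 in the 3 panels.

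Differences among the 3 groups could be set beside those of the effectors. In R50 against CDK2-/-, 18 of 42 effectors were higher and 0 lower (2.83% and 2.28% of all names), with a median of 0.90 (0.88 with genes at their bound). In R50 against WT+NU6102, 22 were higher and 0 lower (7.53% and 3.06%), with a median of 1.04 (0.82 with genes at their bound). Between CDK2-/- and WT+NU6102 the effectors went both ways, with 6 higher and 4 lower (7.63% and 3.45%) and a median of 0.06, whereas the 3 called IFIT and IFI44 genes were all lower in CDK2-/-. The 4 lower effectors, named here after their values were seen, were IFI27 at −4.58, BST2 at −3.70, IFI6 at −3.57 and IFITM1 at −3.55. The 6 higher ones were RSAD2 (viperin), TRIM22, DDX60L, SAMD9, ISG20 and CMPK2, and RSAD2 and TRIM22 were above background on 1 of the 2 CDK2-/- arrays and on neither WT+NU6102 array. The order WT, R50, WT+NU6102, CDK2-/- was seen in 17 of 42 effectors, beside 2.41% of all names tested, and in 17 of the 36 effectors that were highest in WT (47.2%), beside the 15.5% given above.

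Other genes near the IFIT and IFI44 loci were set beside the share called over all names. Within 1 Mb of the 7 probes, 23 tested probes of 19 other names lay on chromosome 10 and 11 probes of 10 names on chromosome 1. The nearest was SLC16A12, a monocarboxylate transporter, 11.3 kb away. Against WT, ANKRD22 was called lower in WT+NU6102 (−1.01, limma adjusted p = 0.0255). XLOC_008552, the array's name for an assembled transcript, was called lower in CDK2-/- (−1.43, limma adjusted p = 0.0298). XLOC_008552 was well above background on 5 of the 8 arrays and ANKRD22 on 7. Differences of these probes, also those against WT+NU6102 below, thus rest partly on values not well above background. No other neighbour was called against WT, and none in R50. Of all names, 5.19%, 2.25% and 0.908% were called lower and 1.12%, 2.43% and 1.72% higher in WT+NU6102, CDK2-/- and R50. So few probes do not set these loci apart from other names. Median differences from WT were 0.09, 0.08 and 0.03 on chromosome 10 and 0.56, −0.19 and −0.12 on chromosome 1 in WT+NU6102, CDK2-/- and R50. The chromosome 1 neighbours of IFI44 and IFI44L leaned to one side without reaching the minimum difference. In WT+NU6102 9 of the 11 probes were above WT, 7 of them with a limma adjusted p under 0.05. In CDK2-/- 9 were below WT, 6 of them under that threshold. Both FUBP1 probes are among the 11. The share of all tested probes with that sign and threshold was not taken, so this lean is a description only. No neighbour was called in R50 against CDK2-/-, beside 2.83% of all names higher and 2.28% lower. Against WT+NU6102, ACTA2, ANKRD22 and LIPM were higher in CDK2-/-, and XLOC_008552, STAMBPL1, both FUBP1 probes and 1 unnamed probe were lower. In R50 ACTA2 and ANKRD22 were higher and XLOC_008552, STAMBPL1, both FUBP1 probes and another unnamed probe lower. The shares of all names against WT+NU6102 were 7.63% higher and 3.45% lower in CDK2-/-, and 7.53% and 3.06% in R50.

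**Figure D5:**
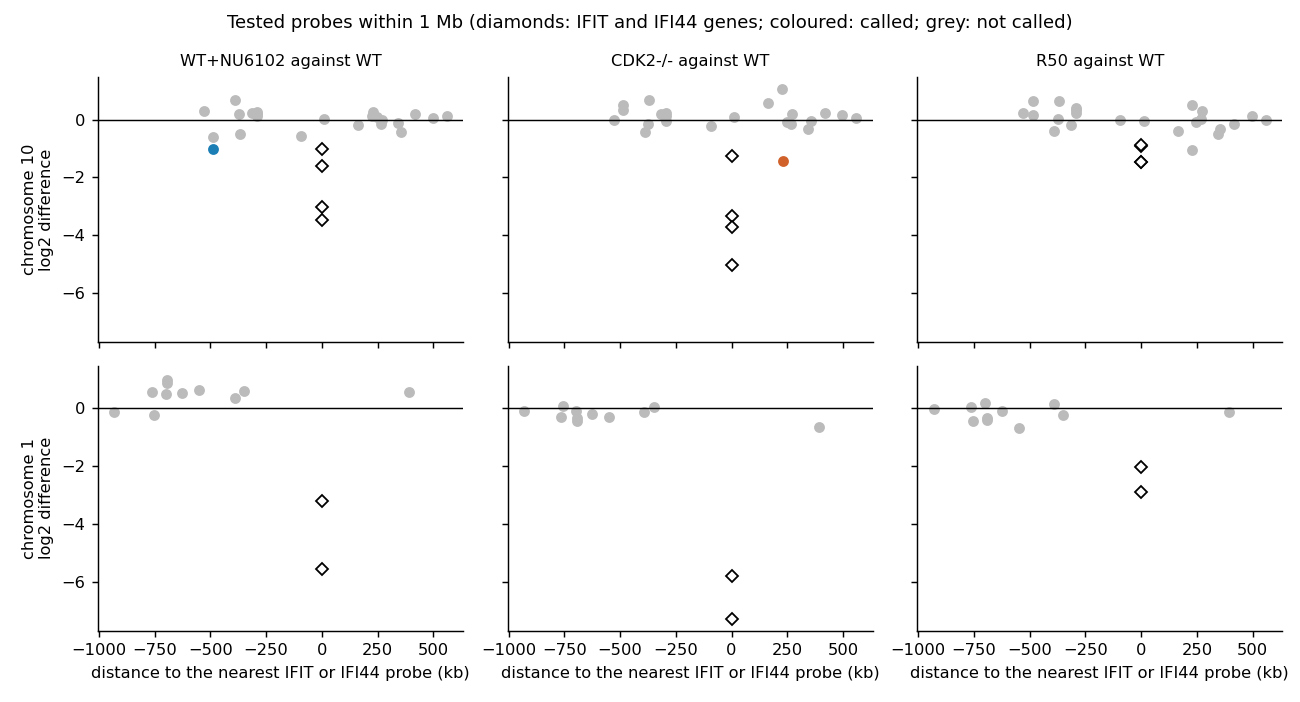
Log2 difference from WT (y axis) is plotted against distance in kb to the nearest IFIT or IFI44 probe (x axis) for tested probes within 1 Mb, on chromosome 10 above and chromosome 1 below. Diamonds at 0 are the 6 genes; most chromosome 1 neighbours lie above 0 in WT+NU6102 (median 0.56) and below 0 in CDK2-/- (median −0.19), with 1 called probe in WT+NU6102, 1 in CDK2-/- and 0 in R50.

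As a check of the labels, the CDK2 probe was lower in CDK2-/- than in WT cells by −0.78 (SE 0.04, limma adjusted p = 0.000271), by −0.34 in R50, and higher by 0.33 in WT+NU6102. Whether it lies in the part that was deleted is not given in the sources used here. The scanner marked from 32376 to 36206 spots of an array as well above background. Of the epithelial markers, 6 of 7 were so on all 8 arrays while VIL1, a marker of gut epithelium, was on none. Among 11 leukocyte, fibroblast and endothelial markers, PTPRC, CD14, COL1A1, VWF and CDH5 were above background on all 8 arrays, and COL3A1 and PDGFRB on none. The sums of these lists, in units of the array's 75th percentile, ran from 0.103 to 0.171 for fibroblast markers in WT and WT+NU6102 and from 0.242 to 0.370 in R50 and CDK2-/-, from 0.357 to 0.520 for leukocyte and 0.334 to 0.422 for endothelial markers over all groups. The epithelial sum ran from 468 to 735 over the groups. COL1A1 was called higher in CDK2-/- than in WT, and its part in the results was not tested.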

How the data were processed

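RNA of HCT-116 cells was hybridized in 8 one-colour Agilent arrays. The authors deposited scanner intensity values made by Agilent Feature Extraction 11.5.1.1, per the labels, background already removed and arrays not yet scaled to each other. Beside these stand the authors' deposited log2 values of 28719 probes from GeneSpring GX, which equal the log2 intensity less a constant per array, centred on each probe's median, with array medians between −0.021 and 0.023. The series gave no columns of other samples. Positions are those of the WT and WT+NU6102 files (hg19), since the other files list none.

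Scanner files were read in R 4.3.3 with the data.table package (1.17.8). Controls and outlier spots were dropped, the 75th percentile of all spots that are not controls was subtracted from the log2 signal, and repeated spots gave their mean. From the 50599 probes, 31 without a usable spot on some array were dropped, and 28677 that were well above background throughout some group were tested. There were 0 saturated spots. The brightest probe stood for a gene. The 21595 names tested include 1002 that are only a probe ID. Limma 3.58.1 fitted the 4 groups together, without covariates, and p-values are two-sided and Benjamini-Hochberg adjusted over all probes. The scripts were tested on simulated data. Precision is limited by how few arrays each group has.

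The genes and lists were chosen with earlier results of these data known. Genes named are the 6, the 8 most like them, all receptors, kinases, factors and negative regulators tested, the 3 largest called falls and rises of sensors and of effectors against WT, called neighbours, and CDK2, save a few genes that are not reported here. Replicate numbers did not pair the arrays (correlations of deviations between −0.028 and 0.045). Alternatives were normexp correction with an offset of 50, quantile normalization, other filters on dim probes, the authors' values, a trended prior variance and a replicate block. Further ones were an unpaired t-test, no minimum difference, the mean of a gene's probes, and leaving out each array. The paper's methods name such a t-test for experimental groups in general, and one-way ANOVA for the arrays. The t-test without adjustment was added after seeing the data. Figures used Python 3.11.15, numpy 2.4.6 and matplotlib 3.10.9. Windows came from RefSeq on GRCh38.p14, and IFIT2 has no window there.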

Additional observations from a re-analysis of the deposited data

How the results depend on the processing

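Of the 6 genes, 5 were called in R50 against CDK2-/-, 4 in R50 against WT+NU6102 and 3 in CDK2-/- against WT+NU6102. When each array was left out in turn these counts ranged from 5 to 5, 4 to 4 and 3 to 3. Only probes well above background on all 8 arrays left 4 of the genes, of which 3, 2 and 2 were called. Normexp correction gave 2 in R50 against WT+NU6102, and no minimum difference gave 5 in CDK2-/- against WT+NU6102. Under normexp IFI44L in CDK2-/- against WT+NU6102 turned to 0.11 (limma adjusted p = 0.338; 0.17 to 0.805 over its alternatives), with both groups below background. The cause of these shifts was not tested. The median differences from WT were −3.11, −4.37 and −1.47 in WT+NU6102, CDK2-/- and R50. They became −2.41 and −2.96 in the first 2 under normexp, and −3.05 in WT+NU6102 under quantile normalization, and leaving out arrays gave −3.19 to −3.03, −4.43 to −4.31 and −1.52 to −1.41. Of the interferon list genes 44, 40 and 12 were called. Without a minimum difference there were 67, 61 and 43, with no share of all names taken at that setting. Under normexp there were 6 in R50, and leaving out arrays gave 41 to 44, 36 to 40 and 8 to 11. The replicate block gave 5, 4 and 3 called genes and changed no call, although the numbers do not pair the arrays. The slide as a random block could not be fitted, since each group lies on 1 slide, and was not run.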
